A study of Rattus norvegicus with 10 samples.

Results

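In total, 10 gene symbols of glycolysis were examined in the renal cortex of PCK rats: the hexokinases *Hk1* and *Hk2*, the isomerase *Gpi*, the phosphofructokinases *Pfkl* and *Pfkp*, and *Aldoa*, *Pgk1*, *Eno1*, *Pkm* and *Ldha*. They were taken by symbol from the expression table, where *Pkm* stands on 2 rows, so the 10 symbols came to 11 rows of 32545. RNA was sequenced from 5 male and 5 female rats, with 1 library per rat. Expression is given as FPKM, fragments scaled by gene length and by a size for each library. That size was not the count of reads on genes. The values imply 14083202 for female 2 and 15435670 for male 1, with 14963924 and 14387669 reads on genes. The rats were of the strain PCK/CrljCrl-Pkhd1pck/Crl, a model of autosomal recessive polycystic kidney disease, and all 10 carried its *Pkhd1* mutation. The groups compared were the sexes, and no rat without the mutation was part of these data. The sample labels name the tissue as kidney and give an age of 12 to 14 weeks, while the study's methods name cortex and 10 to 12 weeks. According to those methods the rats were littermates from 2 litters with different parents, and the litter of each rat was not used here.

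Glycolysis turns glucose into pyruvate in the cytosol and yields ATP without oxygen. Hexokinase commits glucose to the cell, phosphofructokinase sets the pace of the pathway, and aldolase, phosphoglycerate kinase, enolase and pyruvate kinase follow it, with lactate dehydrogenase turning pyruvate into lactate. In the kidney, the proximal tubule makes glucose and burns fatty acids rather than glucose, the distal nephron uses glycolysis, and cyst-lining cells of polycystic kidneys are known for high glycolytic use of glucose. Several of these enzymes are also classic targets of the hypoxia-inducible factors.

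Whole reads could be recovered for 100% of the FPKM values, and the libraries held 13912569 to 20285911 reads on genes. Reads carried no molecular identifiers, so limits of detection, set at 3 reads, speak to counting error alone. Female 2 had the highest share of reads on mitochondrial genes, 26.8% against 14.3% to 19.1% in the other rats, and it lay farthest out of all rats on the second principal component, while on the first female 4 lay farthest out of all rats and male 5 farthest out of the males, at the other end. Proximal tubule markers were abundant, with a sum of 2094 to 4460 FPKM over 7 genes, while the markers of skeletal muscle (0.0393 to 1.71 FPKM, 2 of 3 genes matched) and of adrenal cortex (0.185 to 0.682 FPKM, 2 of 3 matched) were close to 0. In bulk tissue, fewer cells of a type and less RNA per cell cannot be told apart.

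The start regions of members that the results turn on are shown here from RefSeq, on the build GRCr8, from 250 bases before to 50 after the start. Of the 10 symbols, 9 had an entry, with 13 entries in all, and *Pgk1* had none. *Ldha* is shown because it held the most hypoxia-inducible factor cores, *Eno1* and *Hk2* because they had the highest and the lowest correlation of the 11 rows with proximal tubule markers from rat to rat, and *Hk1* as the other hexokinase beside *Hk2*. Where a gene had 2 entries, the one with more cores is shown. Capitals mark the core ACGTG or GCGTG on either strand. Where CACGTG occurs, a core on each strand overlaps in it. *Ldha* lies at chr1:106507842-106508141 on the plus strand, and the second *Eno1* entry at chr5:166003111-166003410 on the plus strand. The second *Hk1* entry lies at chr20:30842023-30842322 and *Hk2* at chr4:116841226-116841525, both on the minus strand.
Ldha: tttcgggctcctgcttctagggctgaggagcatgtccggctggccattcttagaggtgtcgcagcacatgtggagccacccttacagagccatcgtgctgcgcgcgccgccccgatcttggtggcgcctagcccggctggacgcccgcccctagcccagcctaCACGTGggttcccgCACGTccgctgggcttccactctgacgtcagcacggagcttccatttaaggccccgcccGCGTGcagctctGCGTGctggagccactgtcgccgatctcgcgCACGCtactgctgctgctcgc
Eno1: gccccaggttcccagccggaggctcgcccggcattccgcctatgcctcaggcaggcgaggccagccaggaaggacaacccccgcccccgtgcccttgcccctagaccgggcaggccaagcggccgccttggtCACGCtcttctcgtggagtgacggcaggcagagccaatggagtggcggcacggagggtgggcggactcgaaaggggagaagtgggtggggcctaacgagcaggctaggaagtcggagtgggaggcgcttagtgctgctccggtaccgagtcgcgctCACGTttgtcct
Hk1: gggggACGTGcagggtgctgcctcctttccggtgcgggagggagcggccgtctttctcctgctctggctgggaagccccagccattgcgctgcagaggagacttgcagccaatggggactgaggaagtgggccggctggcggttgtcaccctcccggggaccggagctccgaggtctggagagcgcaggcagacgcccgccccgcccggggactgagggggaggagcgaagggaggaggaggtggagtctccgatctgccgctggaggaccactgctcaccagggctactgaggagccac
Hk2: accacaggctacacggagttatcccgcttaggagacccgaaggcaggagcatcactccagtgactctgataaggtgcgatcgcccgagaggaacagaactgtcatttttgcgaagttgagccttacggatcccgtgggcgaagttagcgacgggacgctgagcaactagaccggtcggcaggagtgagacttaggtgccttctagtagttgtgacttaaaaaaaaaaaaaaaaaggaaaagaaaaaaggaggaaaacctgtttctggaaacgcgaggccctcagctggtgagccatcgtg
The *Ldha* sequence held 6 cores, counting the overlapping pair as 2, and 0.63% of 33469 RefSeq promoters of this length held as many. *Eno1* held 2 and *Hk1* held 1 in the entries shown, against 1 and 0 in their other entries, and *Hk2* held 0. At least 1 core was present in 8 of the 13 entries, against 41.6% of all promoters. A match describes the letters and does not show that a factor binds there.

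Among these enzymes, *Gpi* and the later steps were more abundant than hexokinase and phosphofructokinase, except for a second row named *Pkm* on chromosome 20. The mean over the 10 rats was 630 FPKM for *Eno1*, 571 for *Aldoa*, 271 for *Pgk1*, 188 for *Gpi*, 177 for *Ldha* and 91.3 for *Pkm*. It was 29.3 FPKM for *Pfkl*, 23.5 for *Hk1*, 14.4 for *Pfkp* and 1.97 for *Hk2*. The second *Pkm* row had a mean of 15.6 FPKM, between *Hk1* and *Pfkp*, and its range overlapped with both. FPKM are per gene length, so these levels can be set side by side. In every rat *Aldoa* was above *Pgk1*, *Ldha* above *Pkm*, *Pkm* above *Pfkl* and *Pfkp* above *Hk2*, with ranges that did not overlap. *Eno1* was above *Aldoa* in 8 of 10 rats and *Gpi* above *Ldha* in 6 of 10, and these neighbors were within the spread between rats. *Pgk1* and *Gpi*, and likewise *Pfkl* and *Hk1*, had overlapping ranges as well. *Eno1* exceeded 99.5% of the 17631 genes tested, while *Hk2* exceeded 32.0%.

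**Figure D1:**
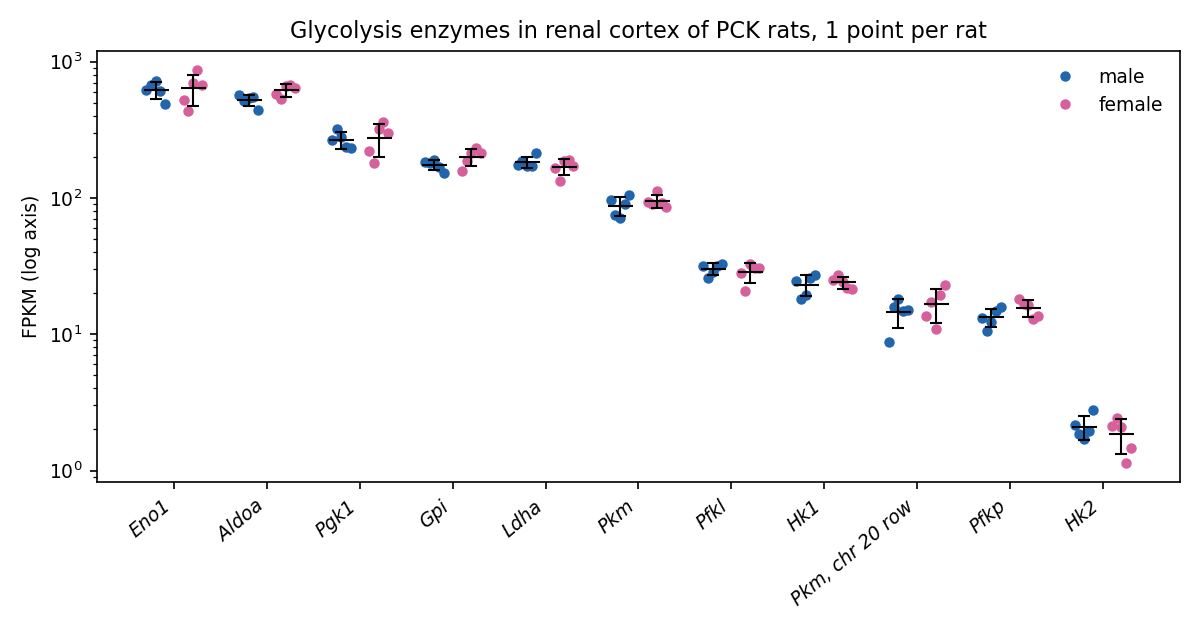
FPKM of each glycolysis enzyme in renal cortex, on a log axis, with 1 point per rat, the mean as a bar and the SD over 5 rats as the error bar. Eno1 and Aldoa are the most abundant and Hk2 the least (1.97 FPKM on average), and the male and female points overlap for every gene.

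*Hk1* (ENSRNOG00000046891; Rnor_6.0, chromosome 20, 31912262 to 31956649) encodes the hexokinase that most tissues use. Its level was 24.8, 18.2, 19.5, 25.7 and 27.3 FPKM in males 1 to 5 and 25.2, 27.1, 24.3, 21.8 and 21.4 FPKM in females 1 to 5. Males 2 and 3 were the lowest and male 5 the highest, and the sexes overlapped. The fold change of females over males was 0.07 on the log2 scale (95% interval −0.21 to 0.34, limma adjusted p = 0.852).
*Hk2* (ENSRNOG00000006116; chromosome 4, 113559427 to 113610243) encodes the insulin-responsive hexokinase of muscle, which tumors and growing epithelia also use. Males had 2.17, 1.85, 1.71, 1.94 and 2.78 FPKM and females 2.11, 2.44, 2.09, 1.14 and 1.46 FPKM, from 110 to 226 reads per rat. Female 4 was lowest and male 5 highest. *Hk2* had a log2 fold change of −0.20 (95% interval −0.67 to 0.28, limma adjusted p = 0.722).

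*Gpi* (ENSRNOG00000023150; chromosome 1, 90063411 to 90091287), which turns glucose 6-phosphate into fructose 6-phosphate, was at 185, 182, 189, 169 and 153 FPKM in males and 158, 188, 215, 231 and 212 FPKM in females. Females 3, 4 and 5 were above every male, and female 1 was below 4 of the 5 males. The log2 fold change was 0.19 (95% interval −0.06 to 0.44, limma adjusted p = 0.467).
*Pfkl* (ENSRNOG00000001214; chromosome 20, 11393877 to 11415882), the liver-type phosphofructokinase, had 31.7, 25.7, 28.7, 31.9 and 32.7 FPKM in males and 28.3, 20.7, 32.7, 30.4 and 30.5 FPKM in females. Female 2 stood lowest, and the other 9 rats lay within 25.7 to 32.7 FPKM. Its difference was −0.09 on the log2 scale (95% interval −0.37 to 0.18, limma adjusted p = 0.786).
*Pfkp* (ENSRNOG00000017163; chromosome 17, 68511064 to 68559471), the platelet-type enzyme, had 13.2, 10.6, 12.2, 14.7 and 15.8 FPKM in males and 18.04, 16.7, 16.5, 13.0 and 13.6 FPKM in females. Females 1, 2 and 3 were above every male, and females 4 and 5 lay among the males. The log2 fold change was 0.23 (95% interval −0.06 to 0.51, limma adjusted p = 0.445).

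*Aldoa* (ENSRNOG00000052802; chromosome 1, 198228387 to 198233588), the aldolase of muscle and of most other tissues, was at 567, 517, 542, 551 and 443 FPKM in males and 574, 530, 660, 679 and 645 FPKM in females. Females 1, 3, 4 and 5 were above every male, and female 2 lay among the males. Its log2 fold change, 0.24 (95% interval −0.02 to 0.49), was the largest among the 11 rows, with an exact permutation p of 0.0476 and a limma adjusted p of 0.351.
*Pgk1* (ENSRNOG00000058249; chromosome X, 77263359 to 77279367), which makes the first ATP of the pathway, had 264, 319, 280, 236 and 232 FPKM in males and 219, 180, 318, 363 and 298 FPKM in females. Both extremes were female, rats 2 and 4. The log2 fold change was 0.02 (95% interval −0.39 to 0.42, limma adjusted p = 0.983).
*Eno1* (ENSRNOG00000017895; chromosome 5, 167288223 to 167299609), the widely expressed enolase, was at 617, 673, 716, 611 and 487 FPKM in males and 520, 437, 693, 863 and 678 FPKM in females. Female 2 was again lowest and female 4 highest, a 1.98-fold range. Its means were 621 ± 86.5 FPKM in males and 638 ± 166 FPKM in females (SD, n = 5 each), with a log2 fold change of 0.01 (95% interval −0.40 to 0.42, limma adjusted p = 0.987).

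*Pkm* (ENSRNOG00000011329; chromosome 8, 64481172 to 64502722) encodes the pyruvate kinase of muscle, brain and growing cells, and its splice forms cannot be told apart in a value per gene. Males had 96.9, 75.2, 71.6, 91.0 and 105 FPKM and females 93.1, 89.6, 112, 92.6 and 85.6 FPKM. Males 2 and 3 were lowest, as for *Hk1*, and female 3 was highest. *Pkm* gave a log2 fold change of 0.11 (95% interval −0.15 to 0.38, limma adjusted p = 0.709).
A second row is named *Pkm* (ENSRNOG00000047276; chromosome 20, 18058245 to 18060661), with a span of 2417 bases against 21551 for the row on chromosome 8. It was at 8.78, 15.9, 18.1, 14.8 and 15.1 FPKM in males and 13.6, 17.1, 10.9, 19.2 and 22.9 FPKM in females. The row on chromosome 8 was 3.73 to 11.0 times as high in the same rat. How reads shared by such near copies were divided could not be checked, so both rows are uncertain. The log2 fold change of the second row was 0.20 (95% interval −0.30 to 0.70, limma adjusted p = 0.740).
*Ldha* (ENSRNOG00000013009; chromosome 1, 102900286 to 102909707), the lactate dehydrogenase chain that favors lactate formation, had 175, 186, 171, 172 and 212 FPKM in males and 166, 134, 188, 191 and 170 FPKM in females. Male 5 was highest and female 2 lowest, and the remaining 8 rats overlapped. Its log2 fold change was −0.12 (95% interval −0.36 to 0.13, limma adjusted p = 0.674).

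To ask whether the sexes differed in these enzymes, the 17631 genes averaging 0.1 FPKM or more were fitted together, and all 11 rows passed that filter. With 0.05 as the limit of the limma adjusted p, none of the 11 was called higher or lower in females. In the whole set of genes tested, 1.26% were called higher and 1.14% lower, 2.4% in either direction. None of the 11 passed at an unadjusted p of 0.05 either, where 15.7% of all genes did, and limma-voom on the recovered reads called 0 of 11 against 2.86% of all genes. The additional demand of a 2-fold change left 1.32% of all genes and 0 of 11 rows. The exact permutation test, two-sided, picked out *Aldoa* alone, 1 of 11 rows against 14.8% of all genes. No row had ranges that were separate between the sexes, against 5.1% of all genes.
The median log2 fold change of the 11 rows was 0.07, against −0.01 over all genes, with 8 rows above 0 and 3 below. The median absolute log2 fold change was 0.12 for the enzymes and 0.12 for the 6660 genes that averaged 10 FPKM or more. The intervals bound what these rats could have shown. For *Hk1*, *Gpi*, *Pfkl*, *Pkm* and *Ldha* the 95% interval of the fold reached no further than 0.776 and 1.35, and for *Hk2* it ran from 0.629 to 1.21. Since the rats were littermates, the p-values measure the spread between these rats.

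**Figure D2:**
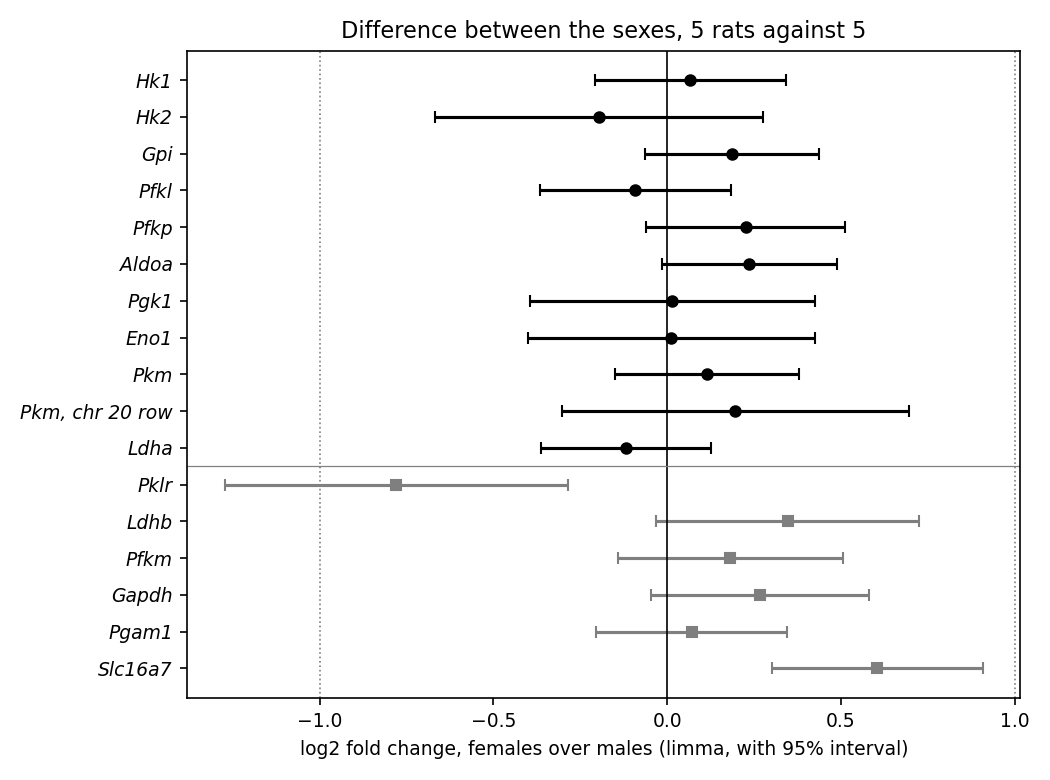
Log2 fold change of females over males with its 95% interval (limma, 5 rats against 5), members as black circles and other genes of the pathway as gray squares; dotted lines mark a 2-fold change. All 11 intervals of the members include 0, and Slc16a7 lies at 0.60.

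Isoforms of the same step were then compared as shares of their summed FPKM. *Eno1* made up 99.2% to 99.7% of enolase, where *Eno3* had 2.24 to 3.78 FPKM and *Eno2* at most 11 reads. *Hk2* made up 4.86% to 8.87% of hexokinase, with *Hk1* 9.83 to 19.0 times as high in the same rat, *Hk3* at 0.328 to 2.22 FPKM and *Hkdc1* at most 0.498 FPKM. *Pfkp* took 17.5% to 30.5% of phosphofructokinase beside *Pfkl* and the muscle-type *Pfkm*, and *Pfkl* was 0.987 to 1.61 times *Pfkm*. *Ldhc*, the testis form of lactate dehydrogenase, had 1 to 6 reads, and *Aldoc*, the brain aldolase, 0.168 to 1.39 FPKM.
The share of *Ldha* differed between the sexes. *Ldha* was 26.7%, 26.8%, 24.9%, 28.8% and 38.0% of lactate dehydrogenase in males 1 to 5 and 25.8%, 23.2%, 22.5%, 20.04% and 22.4% in females 1 to 5. The means were 29.1% ± 5.21 and 22.8% ± 2.06 (SD, n = 5 each; exact permutation p = 0.0159, 0.0476 adjusted over 6 steps). Female 1 lay above male 3, so the ranges overlapped, and male 5 stood apart from the other males. Without male 5 the difference was −4.02 percentage points in place of −6.27. *Ldhb*, the heart-type chain that favors pyruvate formation, had 482, 509, 515, 425 and 345 FPKM in males and 478, 443, 647, 762 and 589 FPKM in females (log2 fold change 0.35, limma adjusted p = 0.367), so neither chain taken singly passed the test.
The share of *Pkm* differed as well. Of pyruvate kinase, *Pkm* made up 94.5%, 92.0%, 92.3%, 91.1% and 93.5% in males and 96.0%, 97.6%, 96.1%, 94.3% and 95.3% in females. The means were 92.7% ± 1.33 and 95.9% ± 1.23 (SD, n = 5 each; exact permutation p = 0.0159, 0.0476 adjusted over 6 steps). Male 1 lay above female 4. *Pklr*, the pyruvate kinase of liver and red cells, had 5.66, 6.58, 5.94, 8.88 and 7.29 FPKM in males and 3.87, 2.18, 4.502, 5.61 and 4.24 FPKM in females, so every female was below every male. Its log2 fold change was −0.78 (95% interval −1.27 to −0.29, limma adjusted p = 0.108, exact permutation p = 0.00794, the smallest that 5 rats against 5 allow). The shares of *Hk2*, *Pfkp* and *Eno1* had exact permutation p-values of 0.317, 0.560 and 0.833, adjusted over the 6 steps.
Without male 5 and female 2 together, the exact permutation p was 0.0571 for *Ldha* and 0.0571 for *Pkm*, and within pairs of equal replicate number 0.0625 for both, the smallest p that such pairs allow. Shares of *Pkm* leave out the second row.

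**Figure D3:**
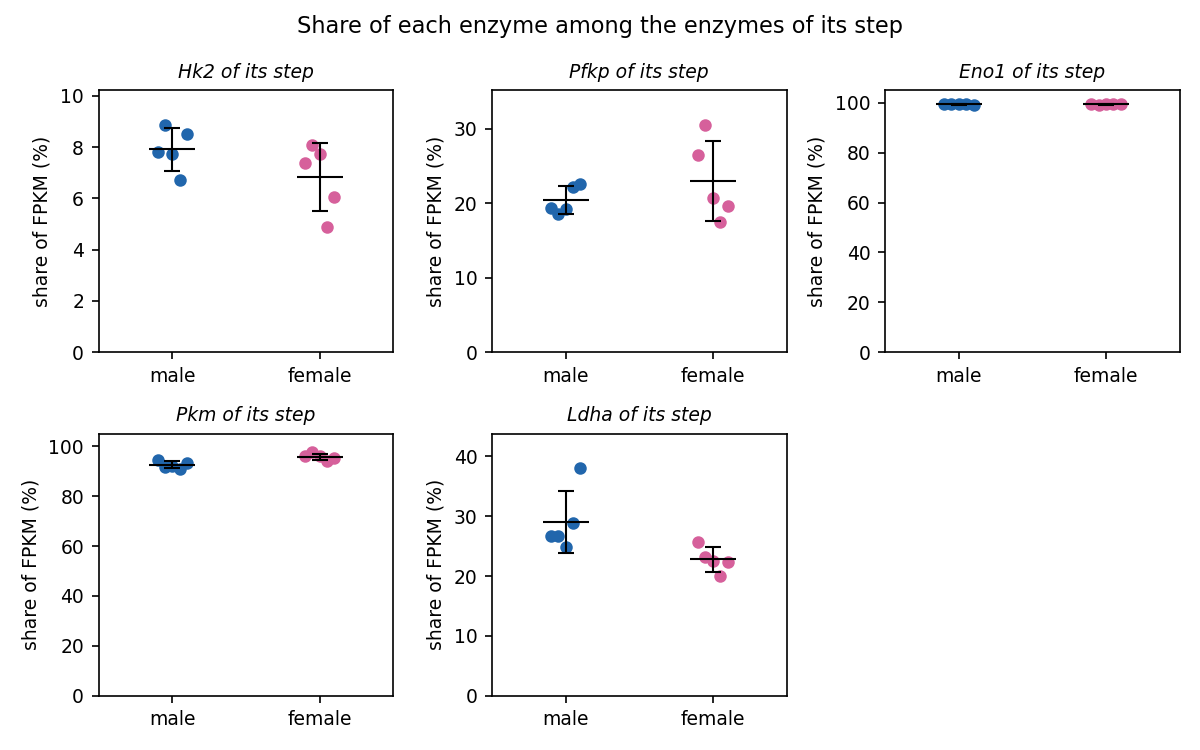
Share of each enzyme in the summed FPKM of the enzymes of its step, in percent, with 1 point per rat, the mean as a bar and the SD over 5 rats as the error bar. Ldha averages 29.1% in males and 22.8% in females, and Pkm 92.7% and 95.9%.

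For the rest of the pathway, 50 further symbols were looked up. *Tigar*, *Pdha1* and *Egln1* were not matched, the others stood on 49 rows, and 46 rows could be tested. These are the other enzymes of each step, the carriers of lactate, pyruvate and glucose, pyruvate dehydrogenase and its kinases, regulators and enzymes of gluconeogenesis. Of the 46 rows, 1 was called higher in females and 0 lower by limma, against 1.26% and 1.14% of all genes. Limma-voom called 2, against 2.86% of all genes, and 8 rows passed at an unadjusted p of 0.05, against 15.7% of all genes, so these counts lay near the background.
*Slc16a7* (ENSRNOG00000007839), which encodes MCT2, a high-affinity carrier of lactate and pyruvate, was the gene called. Males had 25.8, 20.6, 21.1, 27.4 and 23.1 FPKM and females 29.4, 46.1, 35.0, 41.1 and 29.9 FPKM. Every female was above every male, and the log2 fold change was 0.60 (95% interval 0.30 to 0.91, limma adjusted p = 0.0471). The call held in 7 of 23 alternatives, over which the limma adjusted p ran from 0.0329 to 0.124 and the log2 fold change from 0.48 to 0.67. Among those 7, median-ratio scaling divided every library by the same 1.00764, so it nearly repeats the main fit and adds no check. It was lost when any single rat other than female 1 was left out, with an adjusted p of up to 0.120.
Ranges were separate in 3 of the 46 rows, *Slc16a7*, *Pklr* and *Slc16a8*, against 5.1% of all genes tested. *Slc16a8*, the lactate carrier of retinal pigment epithelium, had 1 to 7 reads per rat, a mean of 0.0570 FPKM in males and 0.149 FPKM in females and a limma adjusted p of 0.317. Of the steps without a member, *Gapdh* averaged 996 ± 100 FPKM for males and 1205 ± 178 FPKM for females (SD, n = 5 each; log2 fold change 0.27, limma adjusted p = 0.406), and *Pgam1* at 229 ± 21.1 and 242 ± 39.7 FPKM (0.07, limma adjusted p = 0.842).
Some marker lists also differed by sex. The 5 intercalated cell markers summed to between 134 and 205 FPKM in the male rats and between 215 and 337 FPKM in the female rats, and the 5 fibroblast markers to 244 to 328 and 71.1 to 229 FPKM, both without overlap (exact permutation p = 0.00794 for each). The 4 distal convoluted tubule markers, of which *Pvalb* had 0 reads in all 10 rats, summed to 205 to 332 and 314 to 546 FPKM, and the 4 markers of proliferating cells to 15.1 to 20.8 and 7.81 to 15.4 FPKM, both with overlap (exact permutation p = 0.0159 for each). These p-values are not adjusted over the 16 lists compared. The 7 proximal tubule markers, none of them at 0, summed to 2094 to 3933 and 2293 to 4460 FPKM. The part of these lists in the difference of *Slc16a7*, *Pklr* and the shares was not tested.

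*Tpi1*, which interconverts the triose phosphates, had 2.41 to 8.57 FPKM, far under its neighbors in the pathway, while the row *LOC100911515* on chromosome 9, whose annotation likens it to triosephosphate isomerase, had 31.9 to 87.4 FPKM. Near copies were also counted for *Gapdh*, where *RGD1565368* held 181 to 360 FPKM and *LOC685186* 175 to 284 FPKM. For *Eno1* the pseudogene *LOC685431* on chromosome 4 had 7.48 to 22.2 FPKM, a small part of *Eno1*. The testis forms *Pgk2* and *Aldoart2* are listed at 0 in every rat. Levels of genes with such copies are uncertain, since reads could have been divided among them. No member overlapped another gene of the table.

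Rats also differed from each other in a pattern that crossed both sexes. *Eno1*, *Pgk1*, *Gpi* and *Aldoa* were highest in female 4, and *Hk2* was lowest in that rat. *Hk1* and *Hk2* were highest in male 5, in which *Gpi* and *Aldoa* were lowest. Female 2 held the lowest value in 4 of the 11 rows and female 4 the highest in 4.

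**Figure D4:**
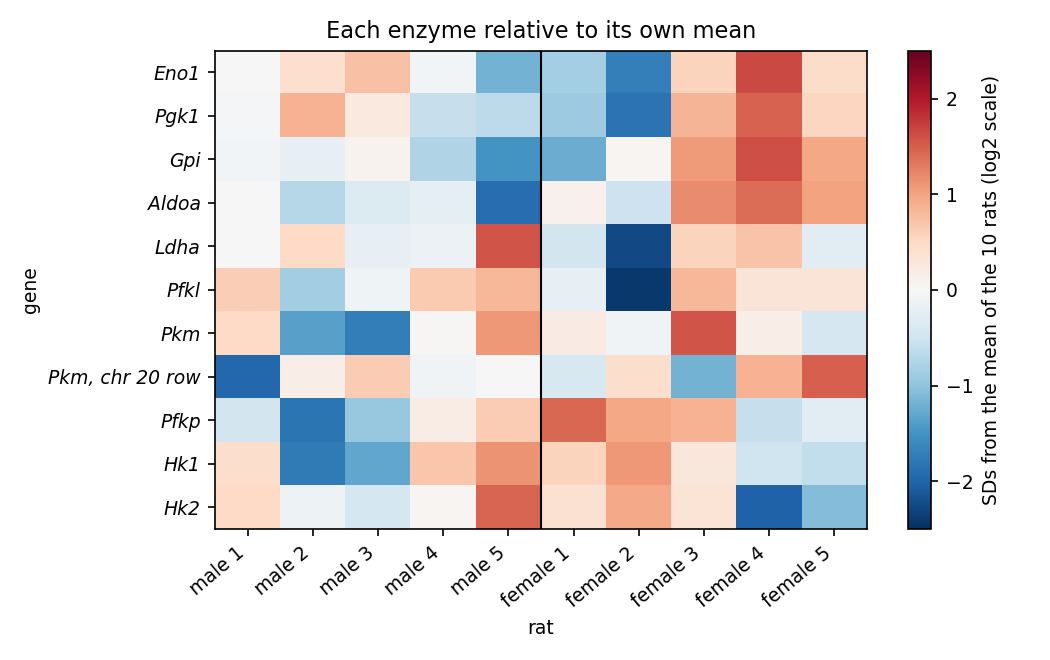
Each enzyme in each rat as SDs from its mean over the 10 rats (log2 scale), males left of the line and females right, red above and blue below the mean. Eno1, Pgk1, Gpi and Aldoa are highest in female 4, where Hk2 is lowest (1.14 FPKM).

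After these values were seen, each row was related to the summed FPKM of 3 marker lists, both on the log2 scale, 33 relations in all over 10 rats. The 3 lists were picked from 16, and the others were not related to the rows. Adjusted p-values cover the 33 relations and not that choice. The sum of the 7 proximal tubule markers was lowest in male 5 (2094 FPKM) and female 2 (2293 FPKM) and highest in female 4 (4460 FPKM). *Slc34a1* and *Gatm* were the most abundant of the 7 in every rat and weigh most in the sum. *Aqp1* alone of the 7 was higher in male 5 (421 FPKM) than in female 4 (391 FPKM). *Eno1* followed them closely, with a Pearson r of 0.960 (permutation p = 4.0e-05, 0.00066 adjusted) and a Spearman rho of 0.964 (permutation p = 8.0e-05, 0.00264 adjusted). Of all genes tested, 0.113% had an r as high. Without the 2 rats farthest from the median, male 5 and female 2, the r of *Eno1* was 0.967.
*Pgk1* gave an r of 0.862 (permutation p = 0.002, 0.0132 adjusted) and a rho of 0.830 (permutation p = 0.0044, 0.0363 adjusted), with 0.885 for r without those rats. *Gpi* gave 0.752 (permutation p = 0.0116, 0.0319 adjusted) and a rho of 0.794 (permutation p = 0.00836, 0.0394 adjusted), with 0.864 without them. *Aldoa* had an r of 0.742 (permutation p = 0.0138, 0.035 adjusted) but a rho of 0.600 (permutation p = 0.0727, 0.160 adjusted), and its r without male 5 and female 2 was 0.474, so that relation rests on those rats.
The hexokinases ran the other way. *Hk2* had an r of −0.880 (permutation p = 2.0e-05, the smallest that the permutations can give, 0.00066 adjusted) and a rho of −0.939 (permutation p = 0.00018, 0.00297 adjusted), with −0.812 without the 2 rats, and 0.454% of all genes tested had an r as low. *Hk1* had an r of −0.755 (permutation p = 0.0053, 0.0218 adjusted) and a rho of −0.806 (permutation p = 0.0071, 0.0394 adjusted), with −0.599 without them. As a description over all genes tested, 2.0% had an r as high as that of *Pgk1*, 5.82% as that of *Gpi* and 6.23% as that of *Aldoa*, and 3.84% had an r as low as that of *Hk1*. *Pfkp* had an r of −0.604 (permutation p = 0.0604, 0.142 adjusted) and a rho of −0.624 (permutation p = 0.0607, 0.160 adjusted), and the adjusted permutation p was 0.479 to 0.743 for *Pfkl*, both *Pkm* rows and *Ldha*. Without male 5 and female 2 the r went from 0.200 to 0.607 for *Ldha* and from 0.243 to 0.603 for the second *Pkm* row. It went from 0.283 to 0.0252 for *Pfkl*, −0.365 to −0.234 for the first *Pkm* row and −0.604 to −0.522 for *Pfkp*, all without a test.
With the mean of each sex taken out, the r with the proximal list was 0.966 for *Eno1*, 0.866 for *Pgk1*, 0.805 for *Gpi*, 0.891 for *Aldoa*, −0.889 for *Hk2*, −0.796 for *Hk1* and −0.782 for *Pfkp*. The r of *Aldoa* and *Pfkp* moved most, from 0.742 and −0.604. The mean of the log2 marker values, which weighs the markers alike, was also used in place of the sum. It gave an r of 0.930 for *Eno1*, 0.797 for *Pgk1*, 0.674 for *Gpi* and 0.754 for *Aldoa*. For *Hk2*, *Hk1* and *Pfkp* it gave −0.899, −0.698 and −0.528, all without a test. Without female 4, the r was 0.957 for *Eno1*, 0.820 for *Pgk1*, 0.669 for *Gpi*, 0.665 for *Aldoa*, −0.882 for *Hk2* and −0.773 for *Hk1*, values without a test. Each sex had only 5 rats, too few for a relation of its own. The permutations treat the 10 rats as exchangeable, and the part of litter in these relations was not tested. The deposited FPKM were not plain shares of a library. Their median-ratio factor was 1.00764 in every library, while their sums ran from 571069 in male 1 to 748194 in female 2.

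**Figure D5:**
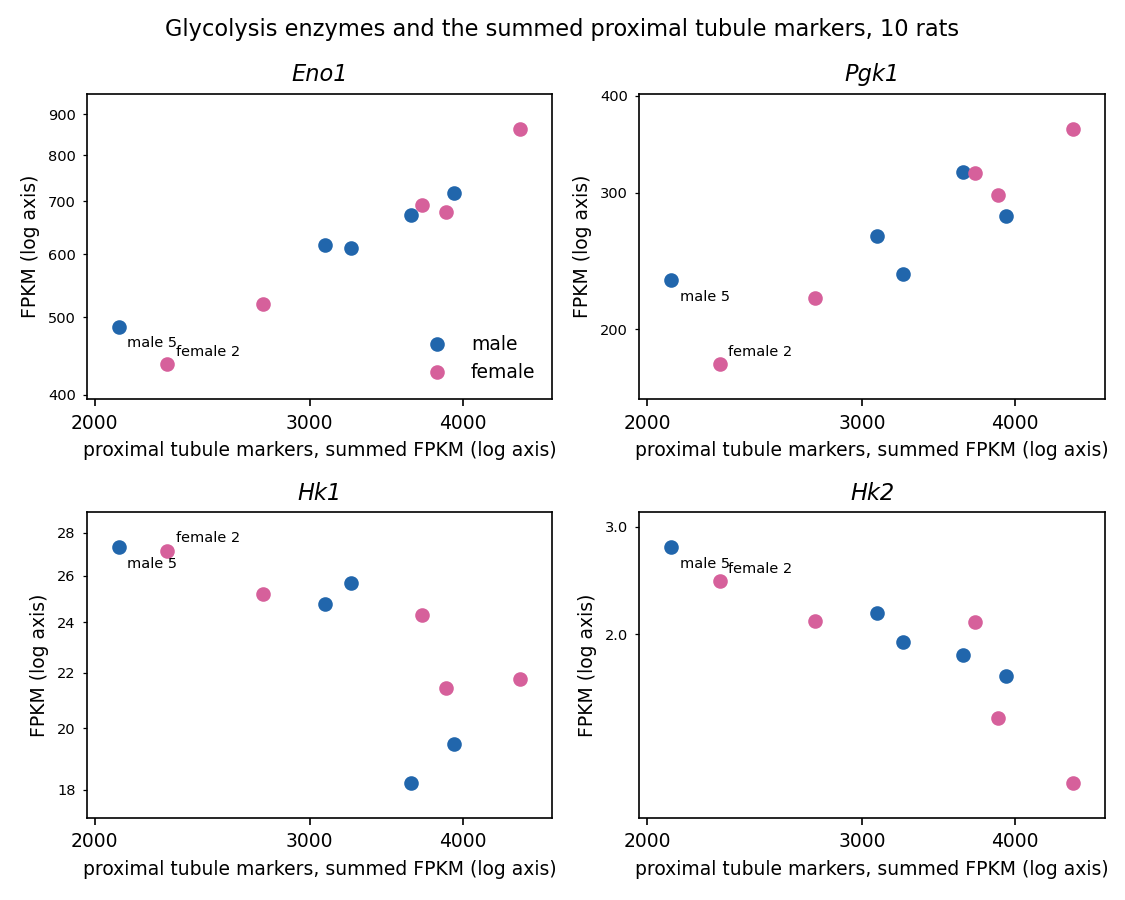
FPKM of Eno1, Pgk1, Hk1 and Hk2 against the summed FPKM of 7 proximal tubule markers, both on log axes, with 1 point per rat. Eno1 and Pgk1 run upward (r = 0.960 and 0.862) and Hk1 and Hk2 downward (r = −0.755 and −0.880), with males and females mixed along each.

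Another 5 enzymes were set against the proximal tubule list over the 10 rats, with p-values adjusted over the 5. These 5 were picked after the data were seen, and the remaining pathway genes were not related to the list. *Gapdh*, not among them, was highest in female 2 (1443 FPKM) and lowest in male 5 (880 FPKM), both rats low in these markers. *Pgam1*, the phosphoglycerate mutase that acts just before enolase, had an r of 0.915 and a rho of 0.867 (adjusted permutation p = 0.0014 and 0.0060), and *Ldhb* 0.850 and 0.879 (0.0023 and 0.0060). *Fbp1*, the fructose bisphosphatase of gluconeogenesis, had 0.864 and 0.794 (adjusted permutation p = 0.00493 and 0.0148), *Pfkm* 0.671 and 0.673 (0.0322 and 0.0499) and *Pklr* 0.250 and 0.0182 (0.486 and 0.972). Without male 5 and female 2 the r was 0.861 for *Pgam1*, 0.771 for *Ldhb*, 0.792 for *Fbp1* and 0.607 for *Pfkm*.
The 6 principal cell markers, genes of the collecting duct, gave an r of 0.870 for *Gpi* (permutation p = 0.00138, 0.0114 adjusted) and 0.812 for *Aldoa* (permutation p = 0.00454, 0.0214 adjusted), with a rho of 0.891 and 0.721 (permutation p = 0.00138 and 0.0231, 0.0152 and 0.0846 adjusted), with 0.771 and 0.644 without females 3 and 4, the rats farthest from the median. An r as high was found for 0.244% and 0.698% of all genes tested. The other 9 rows had adjusted permutation p-values of 0.276 to 0.892 with this list. The proximal and principal lists had an r of 0.526 with each other (permutation p = 0.119) and a rho of 0.564 (permutation p = 0.0968).
The 4 markers of injured tubule, of which *Spp1* made up most and *Krt20* had at most 5 reads, ran from 898 FPKM in female 4 to 7168 FPKM in male 5. *Gpi* had an r of −0.868 with them (permutation p = 0.00024, 0.00264 adjusted) and a rho of −0.806 (permutation p = 0.0080, 0.0394 adjusted). *Hk2* had an r of 0.876 (permutation p = 0.00298, 0.0164 adjusted) and a rho of 0.648 (permutation p = 0.0483, 0.145 adjusted). Without females 4 and 5, the rats farthest out, the r was −0.843 for *Gpi* and 0.487 for *Hk2*, so the relation of *Hk2* rests on those rats. With the mean of each sex taken out, the r of *Pfkp* with this list was 0.859, a value without a test, in place of 0.391 (adjusted permutation p = 0.461). The other 5 rows, *Hk1*, *Pfkl*, both *Pkm* rows and *Ldha*, had adjusted permutation p-values of 0.357 to 0.892 for their r. Over all genes tested, 0.55% had an r as low as that of *Gpi* and 1.48% an r as high as that of *Hk2*. *Aldoa*, *Pgk1* and *Eno1* had an r of −0.746, −0.709 and −0.729 (permutation p = 0.00594, 0.00988 and 0.0113, adjusted 0.0218, 0.0319 and 0.0319). Their rho of −0.539, −0.733 and −0.612 had adjusted permutation p-values of 0.222, 0.0844 and 0.160, and their r was −0.568, −0.560 and −0.521 without females 4 and 5, while 3.77%, 5.32% and 4.46% of all genes had an r as low. This list and the proximal list had an r of −0.719 with each other (permutation p = 0.00384) and a rho of −0.661 (permutation p = 0.0432). The principal and injured lists had an r of −0.681 (permutation p = 0.0236) and a rho of −0.758 (permutation p = 0.0153).

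Among the 5 genes outside all lists whose levels followed the mean of the 11 standardized rows most closely, with each sex's mean taken out, were *Gm17296* (r = 0.935), *Ercc3* (0.934), *Zfp865* (0.919) and *Mageh1* (0.907), over 10 rats and with no test. The rows did not move together, with an r of −0.854 for *Hk2* with *Eno1* and 0.938 for *Pgk1* with *Eno1*. That mean, which holds both *Pkm* rows, therefore does not stand for each enzyme.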

How the data were processed

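RNA-seq of renal cortex from 10 PCK rats, 5 of each sex, was analyzed. The authors deposited FPKM, which are normalized read counts and not whole reads, for 32545 genes. Per the submitters' processing notes the reads passed through fastp, HISAT2 2.0.5, StringTie 1.3.3b and featureCounts 1.5.0-p3, and the study's methods name the build Rnor_6.0. The strand setting of the counting is not given in the sources used here. Each FPKM divided by the worth of 1 read at the deposited gene length gave whole reads (tolerance 0.05) for 100% of the values.

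Limma 3.58.1 (lmFit and eBayes with trend, R 4.3.3) was run on log2(FPKM + 0.1) over genes averaging 0.1 FPKM or more, with Benjamini-Hochberg adjustment. Fold changes are on that scale and understate the change of low genes. Single values had an exact permutation test over all 252 splits, and relations 100000 permutations (scipy 1.17.1). Procedures were tested on simulated data. The members and lists were chosen with earlier results of these data known. All members are named, as are isoform partners, *Tpi1*, *Gapdh*, *Pgam1* and those other pathway genes that passed the adjusted p or had separate ranges. A few of these, and the share of 1 step, are not reported here. Copies of these genes and *Fbp1*, *Fbp2*, *Pgam2* and *Adpgk* were named after their values were seen. *Hkdc1* was matched through its RefSeq gene number. Alternatives were pseudocounts of 1 and 0.01, other filters (none, a mean of 1 FPKM) and scalings (median ratio, quantile, common sum of FPKM with and without mitochondrial genes), eBayes without trend or robust, the replicate number as a block, limma-voom on recovered reads and leaving out each rat. The median-ratio factor was 1.00764 in every library, so that alternative nearly repeats the main fit. Leaving out male 5 and female 2 together, and all relations to marker lists, were added after seeing the data. Cyst fluid was not analyzed here.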

Additional observations from a re-analysis of the deposited data

Results flagged for a closer look

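In 4 of 72 groups of 5 rats, the highest or lowest rat lay apart from the other 4 by more than Dixon's 95% critical value, and chance flags about 1 in 20 groups. *Pkm* was at 112 FPKM in female 3 and at 85.6 to 93.1 FPKM in the other females. *Hk3*, a hexokinase of white blood cells, was at 2.22 FPKM in male 5 and at 0.509 to 0.874 FPKM in the other males, and the macrophage markers were also highest in male 5, at a sum of 168 FPKM against 84.1 to 114 FPKM, whose part in it was not tested. *Pgam2*, the muscle phosphoglycerate mutase, was at 9.72 FPKM in female 1 and 13.1 to 14.2 FPKM in the other females. *Fbp2*, the muscle fructose bisphosphatase, was at 1.98 FPKM in female 2 and 3.498 to 4.11 FPKM in the others of that sex.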

How the results depend on the processing

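Over 23 alternatives none of the 11 rows was called in either direction by limma, and *Hk2*, *Gpi*, *Pfkp*, *Aldoa* and the second *Pkm* row kept their sign. Scaling to a common sum of FPKM moved the median log2 fold change of all genes to −0.12 and that of the enzymes to −0.05. With it the log2 fold change was −0.055 for *Hk1*, −0.11 for *Pgk1*, −0.11 for *Eno1* and −0.0071 for *Pkm*. Leaving mitochondrial genes out of that sum gave −0.034 for *Pgk1* and −0.037 for *Eno1*, and quantile normalization gave −0.067 and −0.026. Without male 5 and female 2, *Pfkl* was at 0.050 and *Ldha* at 0.019. Leaving out each rat in turn gave −0.014 to 0.13 for *Hk1*, −0.15 to 0.019 for *Pfkl*, −0.095 to 0.16 for *Pgk1* and −0.11 to 0.14 for *Eno1*. The cause of these reversals was not tested, and all lay within the intervals given above.

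The count of other pathway genes called higher was 1, and it was 0 with either common sum, without trend, with no filter, with quantile normalization and with the replicate block, 2 with limma-voom, with a pseudocount of 1 and without male 5 and female 2, and 0 to 2 on leaving out each rat. Shares changed as follows. The *Eno1* share differed by −0.0235 percentage points, and by −0.0985 to 0.0496 on leaving out each rat. The *Pkm* share differed by 2.96 points and the *Ldha* share by −4.13 points without male 5 and female 2 (exact permutation p = 0.0571 for each). With the replicate number as a block, the differences of 3.19 and −6.27 points had an exact p of 0.0625, the smallest that 5 pairs allow. Equal numbers did not mark paired rats (correlations of −0.0975 to 0.0708 within pairs), and the block gave 119 genes higher and 112 lower in place of 223 and 201.

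At 110 to 226 reads per rat *Hk2* was the most thinly covered member.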

Other observations

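Some pathway genes near the threshold were noticed only once their values had been seen. *Fbp2* had 1.37 ± 0.684 FPKM in males and 3.45 ± 0.858 FPKM in females (SD, n = 5 each), with a log2 fold change of 1.36 and a limma adjusted p of 0.0593, which ran from 0.0178 to 0.144 over the alternatives. *Pgam2* had 8.76 ± 1.44 and 13.0 ± 1.86 FPKM (log2 fold change 0.56, limma adjusted p = 0.0626). *Adpgk*, a kinase of glucose that uses ADP, had 11.0 ± 0.796 and 14.3 ± 1.92 FPKM (log2 fold change 0.37, limma adjusted p = 0.0986). None of these passed the test over all genes as fitted, but some alternatives called them, 5 of 23 for *Fbp2* and 2 of 23 for each of the others. The adjusted p ran from 0.0194 to 0.147 for *Pgam2*, called without female 1 (0.0194) or male 2 (0.0397), and from 0.0334 to 0.414 for *Adpgk*, called without female 2 (0.0334) or without male 5 and female 2 together (0.0340).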
